A study of Mus musculus with 12 samples.

Results

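Ribosome biogenesis and nucleolar genes were followed in mouse follicular B cells through stimulation of the B cell receptor. The group holds 46 listed genes for RNA polymerase I, the ribonucleoproteins that modify ribosomal RNA, nucleolar chaperones, and the factors that process and assemble the small and large subunits. Each gene was represented by 1 probe set, the one with the highest mean over the 12 arrays. Of the 46 genes, 44 had a probe set with their symbol alone, and all 44 lay above the filter on dim probe sets and were tested among 12190 genes in all. Npm3 and Mrto4 had no such probe set and were not analysed here.

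Ribosomes are built in the nucleolus, where RNA polymerase I transcribes the large ribosomal RNA precursor. Small nucleolar ribonucleoproteins of the box C/D class guide methylation of the precursor and those of the box H/ACA class guide the conversion of uridine to pseudouridine, while the small subunit processome and a series of pre-60S particles cut and fold it together with ribosomal proteins. Resting lymphocytes are small and make few ribosomes, and entry into growth after antigen receptor signalling is known to involve enlargement of the nucleolus, with Myc among the known transcriptional activators of these genes.

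Male 129SvEv mice, 8 weeks old, gave the spleens from which follicular B cells were sorted as B220+ AA4.1- cells with high CD23 and intermediate CD21. The cells were kept with anti-IgM antibody at 10 µg/mL, which crosslinks the B cell receptor. The groups were cells labelled ZFXcko (cko) at 0, 2 and 12 h and cells labelled ZFXwt (wt, wild type) at 0, 2 and 12 h, with 2 arrays in each of the 6 groups. Zfx encodes a zinc finger transcription factor, and the sources used here give neither the Cre driver, nor the deleted part of the gene, nor the number of mice behind a sample. The labels state that labelled RNA was hybridized in duplicate, so the p-values measure the spread between these arrays only, which may be technical. The number of arrays limits the precision.

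The array signals carried a division that did not follow genotype or time alone, and each comparison is given with its place in it. On the cko 0 h, wt 0 h and wt 12 h arrays the actin control probes gave a 5′ signal of 1.8% to 3.33% of the 3′ signal, and the 18S ribosomal RNA control gave 6636 to 10892. On the cko 2 h, cko 12 h and wt 2 h arrays these values were 8.41% to 19.06% and 1022 to 1299. The actin value also differed without overlap inside each side. It was 1.99% and 1.8% on cko 0 h arrays against 3.27% and 3.33% on wt 0 h arrays, and 10.56% and 10.78% on cko 2 h arrays against 8.51% and 8.41% on wt 2 h arrays. It was 19.06% and 18.96% on cko 12 h arrays against 10.56% and 10.78% on cko 2 h arrays, and 2.11% and 2.27% on wt 12 h arrays against 3.27% and 3.33% on wt 0 h arrays. The part of these differences in the results was not tested. Comparisons of cko with wt at 0 h, of cko with wt at 2 h, of wt at 12 h with wt at 0 h and of cko at 12 h with cko at 2 h lie within 1 side of this division. The other comparisons of 2 groups cross it, so that in each of them the division and the biological contrast cannot be told apart. For a number of the named genes the other probe sets are given beside the brightest. The brightest Zfx probe set averaged 2403, 1004 and 1289 on the cko arrays at 0, 2 and 12 h, against 1012, 799.6 and 987.4 on the wild-type arrays, and was called higher in cko by 1.23, 0.32 and 0.38 on the log2 scale. Where this probe set lies relative to the deleted part is not known here, so its higher signal in cko cannot be used to check the labels, and the genotypes are given as labelled. The B cell marker Ms4a1 had group means of 4759 to 11840 and was not called at 2 h against 0 h in either genotype. Others fell, such as Cr2, with group means of 401.4 to 7694. Of 8 B cell and gate markers, 6 were called lower in cko and 5 in wt at 2 h (39.2% and 36.2% of all tested genes). Cd93, which encodes the AA4.1 antigen excluded by the gate, had group means of 37.6 to 120.6.

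Promoter windows from RefSeq (GRCm38.p6, 250 bases before to 50 bases after the annotated start) were available for 40 of the 46 genes. The letters CACGTG, the E-box bound by Myc and Max, occurred in the windows of 9 of the 40 genes (22.5%), against 11.5% of the 9885 tested genes with a window. In 7 of the 40 (17.5%) it lay within the 50 bases after the start, against 1.8% of tested genes, a position chosen after the matches were seen. The letters AGGCCT, used here for Zfx, occurred in 0 of the 40 genes and in 12.7% of tested genes. Both motifs read the same on the 2 strands, and a match is a description, not a site. The windows of 4 genes whose responses are described here are printed 5′ to 3′, with CACGTG in capitals. Nop58, with the largest rise, has no such match. CACGTG begins at position 29 for Pus7, at position -20 for Utp18 and at position 18 for Wdr43, counted from the annotated start of the printed window. Pus7 has another annotated start, with the window chr5:23779614-23779913, which holds no match and is not printed.
Nop58, chr1:59684756-59685055, plus strand: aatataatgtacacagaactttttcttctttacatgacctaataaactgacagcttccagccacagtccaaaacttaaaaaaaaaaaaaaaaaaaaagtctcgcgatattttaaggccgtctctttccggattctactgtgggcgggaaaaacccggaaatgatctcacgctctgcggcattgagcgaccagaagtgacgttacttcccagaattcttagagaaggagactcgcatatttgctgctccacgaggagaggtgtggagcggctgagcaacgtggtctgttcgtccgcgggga
Pus7, chr5:23783662-23783961, minus strand: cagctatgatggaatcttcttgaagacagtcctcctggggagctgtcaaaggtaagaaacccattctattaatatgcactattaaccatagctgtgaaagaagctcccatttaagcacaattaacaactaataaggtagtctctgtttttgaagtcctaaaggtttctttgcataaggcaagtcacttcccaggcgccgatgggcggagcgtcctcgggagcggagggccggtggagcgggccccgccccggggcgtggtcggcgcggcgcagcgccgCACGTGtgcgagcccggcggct
Utp18, chr11:93885717-93886016, minus strand: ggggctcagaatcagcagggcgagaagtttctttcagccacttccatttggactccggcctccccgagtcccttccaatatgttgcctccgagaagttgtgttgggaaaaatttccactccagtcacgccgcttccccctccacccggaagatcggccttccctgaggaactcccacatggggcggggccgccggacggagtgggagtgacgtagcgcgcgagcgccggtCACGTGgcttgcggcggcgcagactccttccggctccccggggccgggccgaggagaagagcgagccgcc
Wdr43, chr17:71615965-71616264, plus strand: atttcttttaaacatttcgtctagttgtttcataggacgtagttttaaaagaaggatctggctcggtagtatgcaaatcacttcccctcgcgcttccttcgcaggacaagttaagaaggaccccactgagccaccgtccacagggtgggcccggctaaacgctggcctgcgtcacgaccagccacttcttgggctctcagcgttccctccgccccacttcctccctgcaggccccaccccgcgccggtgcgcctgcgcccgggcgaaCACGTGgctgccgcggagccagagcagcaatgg

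Anti-IgM was followed by higher signals of nearly all of these genes at 2 h in both genotypes. In cko cells 39 of the 44 genes rose at 2 h against 0 h and 2 fell, where 23.8% of all tested genes rose and 39.2% fell. The lower genes were Nop10 and Bms1, and Gnl2, Heatr1 and Polr1a were not called. In wild-type cells 40 rose and 3 fell (Nop10, Bms1 and Polr1a), where 23.5% of all tested genes rose and 36.2% fell, and Gnl2 was not called. The median difference over the 44 genes was 1.40 in cko and 1.59 in wt on the log2(signal + 16) scale, against medians of -0.32 and -0.24 over all genes. Shifting every array to a common median moved the medians over all genes to -0.03 in cko and -0.04 in wt, and those of the 44 genes to 1.69 and 1.79. Of all called genes, 37.8% were higher in cko (51.1% with the common median) and 39.4% in wt (49.3% with it). Rises of at least 2-fold were called for 29 of the 44 genes in cko, against 12.4% of all tested genes, and for 28 in wt, against 11.2%. Both of these comparisons cross the array division. In a fit with a term for the division and 1 response shared by the genotypes, 40 of the 44 genes rose at 2 h and 0 fell, where 16% of all tested genes rose and 22.6% fell. Every 2 h array lies on 1 side and every 0 h array on the other, so that term rests on cko against wt at 12 h. The fit assumes equal 12 h responses in the genotypes, and without that assumption it cannot tell the division from the 2 h response. In bulk RNA from sorted cells, a change in the number of cells of one kind cannot be told apart from a change in RNA per cell.

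At 12 h the wild-type response, which lies within 1 side of the array division, included 42 genes higher than at 0 h and 0 lower, where 24.8% and 23.1% of all tested genes were called in these directions. The remaining 2 were Gnl2 (0.03 ± 0.16 on the log2 scale, limma adjusted p = 0.91) and Nop14 (0.15 ± 0.23, adjusted p = 0.65). Throughout, ± after a difference is its standard error (SE). By the unadjusted p the count of lower genes was also 0, as every one of the 44 differences was positive. The median difference was 1.15, against 0.03 over all genes. In cko cells at 12 h, a comparison that crosses the division, 35 genes were higher and 4 lower (25.9% and 33.1% of all tested genes), with a median of 0.90 against -0.20 over all genes. The 4 lower genes were Gnl2, Bms1, Bop1 and Nop10, and Heatr1, Noc2l, Nop2, Rrs1 and Tsr1 were not called. These 4 were lower on their brightest probe sets only. Their other probe sets differed by 0.85 and 1.64 for Gnl2, 0.45 for Bms1, 0.74 for Bop1 and 3.23 for Nop10. With probe sets averaged 1 of the 44 genes was called lower (28.8% of all tested genes). With the common median, the median became 1.19 for the 44 genes and 0.09 over all genes, and 60.6% of all called genes were higher in place of 43.9%.

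**Figure D1:**
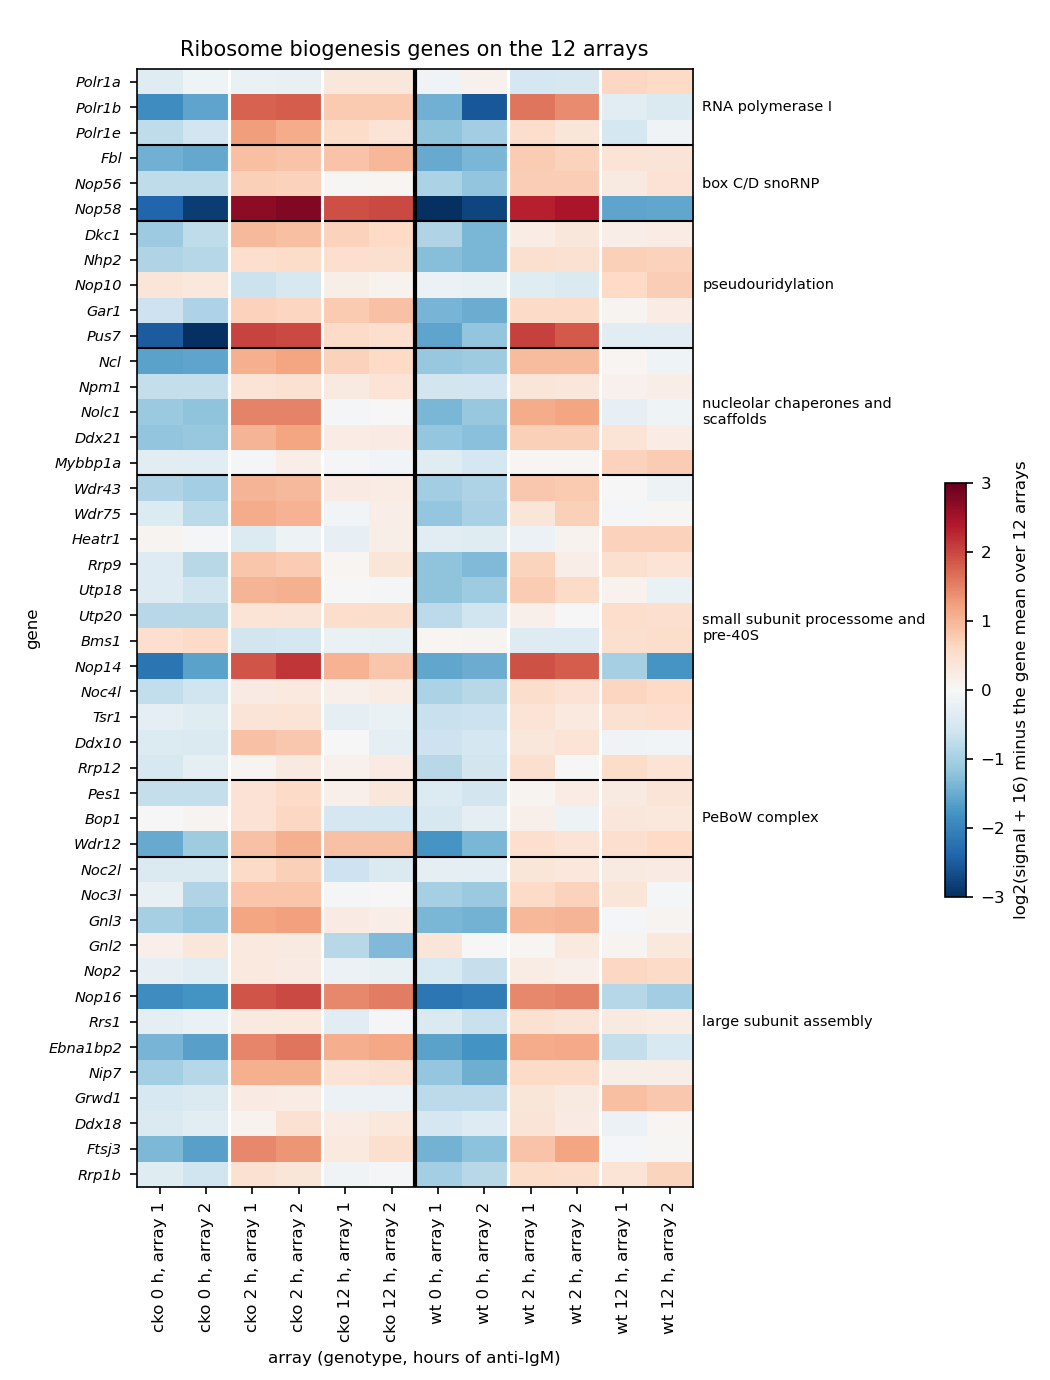
Signals of the 44 genes (rows, grouped by role) on the 12 arrays (columns, cko left of wt and 0, 2 and 12 h in order). Colour gives log2(signal + 16) minus the gene's mean over the 12 arrays, and most rows are blue at 0 h and red at 2 h in both genotypes.

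Among the RNA polymerase I genes, Polr1b, the second-largest subunit of the enzyme, had the largest rise. Polr1b had signals of 99.7 and 123 at 0 h, 1409 and 1458 at 2 h and 706 and 710 at 12 h on the cko arrays, against 139 and 56 at 0 h, 1253 and 1103 at 2 h and 318 and 292 at 12 h on the wild-type arrays. Both genotypes were low at 0 h and high at 2 h, with no overlap between the times. With the 12 h arrays included, the order also follows the array division, as every cko 2 h, cko 12 h and wt 2 h array lay above every other array. The rise at 2 h was 3.51 ± 0.24 in cko (adjusted p = 1.3e-08) and 3.50 ± 0.24 in wt (adjusted p = 1.8e-08), and at 12 h it was 2.51 ± 0.24 in cko (adjusted p = 6.4e-07) and 1.60 ± 0.24 in wt (adjusted p = 8e-05). Polr1e, an associated factor of the polymerase, was called higher at both times in both genotypes. Polr1a, the catalytic subunit, behaved differently. Polr1a read 240 and 283 at 0 h, 269 and 265 at 2 h and 396 and 396 at 12 h on the cko arrays, against 289 and 342 at 0 h, 213 and 221 at 2 h and 489 and 482 at 12 h on the wild-type arrays. Its brightest probe set fell in wt at 2 h by 0.50 ± 0.12 (adjusted p = 0.0027) and was not called in cko (0.03 ± 0.12, adjusted p = 0.84), while its other 2 probe sets differed by 0.20 and 1.14 in wt at 2 h.

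The 3 core proteins of the box C/D ribonucleoproteins were called higher at 2 h and at 12 h in both genotypes. Nop58 had the largest rise at 2 h of all 44 genes. Nop58 had signals of 120 and 83 at 0 h, 4546 and 4811 at 2 h and 2666 and 2766 at 12 h on the cko arrays, against 70.8 and 89 at 0 h, 3523 and 3855 at 2 h and 219 and 226 at 12 h on the wild-type arrays. The 0 h values were the lowest in each genotype, the 2 h values the highest, and the cko and wt values at 12 h did not overlap. The signals also follow the array division, with every cko 2 h, cko 12 h and wt 2 h array above every other array. Its rise at 2 h was 5.34 ± 0.13 in cko, a fold of 40.4 on the log2(signal + 16) scale (adjusted p = 5.3e-13), and 5.28 ± 0.13 in wt, a fold of 38.8 (adjusted p = 1.1e-12). At 12 h it was 4.56 ± 0.13 in cko (adjusted p = 3.9e-12). Fbl, the methyltransferase fibrillarin, is the catalytic member. Fbl had signals of 1377 and 1296 at 0 h, 7034 and 6814 at 2 h and 6826 and 7472 at 12 h on the cko arrays, against 1309 and 1439 at 0 h, 6358 and 6074 at 2 h and 4972 and 4938 at 12 h on the wild-type arrays. Its wild-type rise at 12 h was 1.84 ± 0.06 (adjusted p = 5.6e-11), and no array at 2 or 12 h was as low as the 0 h arrays. Nop56, which pairs with Nop58, had the smallest rise of the 3 at 2 h. Nop56 had signals of 1267 and 1274 at 0 h, 3542 and 3483 at 2 h and 2196 and 2254 at 12 h on the cko arrays, against 1111 and 943 at 0 h, 3613 and 3610 at 2 h and 2591 and 2927 at 12 h on the wild-type arrays.

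**Figure D2:**
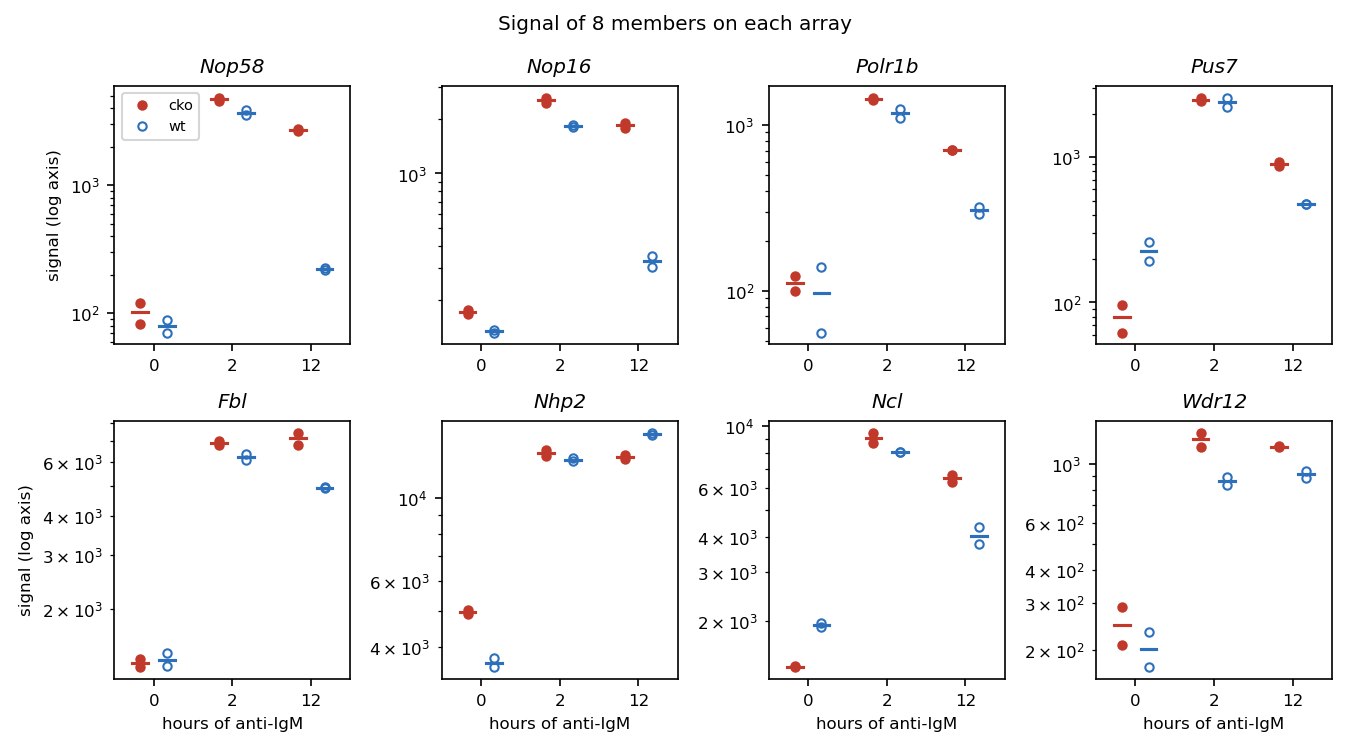
Signal of 8 genes on each array (log axis) at 0, 2 and 12 h of anti-IgM. Filled points are cko arrays, open points wt arrays and bars the mean of 2 arrays. Nop58 and Nop16 stayed high at 12 h on the cko arrays and not on the wt arrays, an order that is also that of the array division. Fbl, Nhp2 and Wdr12 were high at 12 h in both genotypes.

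Of the 5 pseudouridylation genes, 4 rose at 2 h in each genotype. Pus7, a pseudouridine synthase that works without a guide RNA, had the second-highest rise in cko. Pus7 had signals of 95.7 and 62.1 at 0 h, 2545 and 2449 at 2 h and 922 and 872 at 12 h on the cko arrays, against 194 and 259 at 0 h, 2571 and 2224 at 2 h and 477 and 480 at 12 h on the wild-type arrays. The cko arrays were below the wt arrays at 0 h and above them at 12 h, with overlap at 2 h. Every cko 2 h, cko 12 h and wt 2 h array lay above every other array, as in the array division. The rise at 2 h was 4.75 ± 0.16 in cko (adjusted p = 6.2e-12) and 3.33 ± 0.16 in wt (adjusted p = 2.8e-10), and 3.29 ± 0.16 in cko at 12 h (adjusted p = 3.6e-10). Nhp2 belongs to the core of the box H/ACA particles with Dkc1, the synthase, Gar1 and Nop10. Nhp2 had signals of 4895 and 5035 at 0 h, 12935 and 13359 at 2 h and 13004 and 12696 at 12 h on the cko arrays, against 3736 and 3538 at 0 h, 12756 and 12489 at 2 h and 14887 and 14708 at 12 h on the wild-type arrays. It was higher at 12 h in wt by 2.02 ± 0.05 (adjusted p = 2.3e-12), and all 8 stimulated arrays lay above all 4 arrays at 0 h. Dkc1 read 5242 and 4998 on the cko arrays and 3095 and 3336 on the wild-type arrays at 2 h. Gar1 read 6497 and 6331 on the cko arrays and 6041 and 6022 on the wild-type arrays at that time.

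Nop10 was the exception in its class. Nop10 had signals of 17849 and 17344 at 0 h, 8914 and 9934 at 2 h and 15632 and 14971 at 12 h on the cko arrays, against 12316 and 12003 at 0 h, 10848 and 10343 at 2 h and 21131 and 23308 at 12 h on the wild-type arrays. The brightest probe set fell at 2 h by 0.90 ± 0.06 in cko (adjusted p = 8.5e-09) and by 0.20 ± 0.06 in wt (adjusted p = 0.011). The other Nop10 probe set rose by 2.40 in cko and 2.64 in wt in the same comparison, so the 2 probe sets of this gene disagree in direction. Within the division, in wt at 12 h against 0 h, both were called higher, and the other one differed by 1.94.

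Among the nucleolar chaperones and scaffolds, all 5 tested genes rose at 2 h and at 12 h in both genotypes. Ncl is nucleolin, an abundant RNA-binding protein of the nucleolus. Ncl had signals of 1360 and 1374 at 0 h, 8695 and 9503 at 2 h and 6688 and 6314 at 12 h on the cko arrays, against 1894 and 1968 at 0 h, 8075 and 8086 at 2 h and 4333 and 3765 at 12 h on the wild-type arrays. The 0 h arrays were the lowest in each genotype, and cko lay below wt at 0 h and above it at 12 h. As in the array division, every cko 2 h, cko 12 h and wt 2 h array lay above every other array. Its rise in cko was 2.72 ± 0.07 at 2 h (adjusted p = 6.6e-13) and 2.24 ± 0.07 at 12 h (adjusted p = 6.3e-12). Nolc1, a scaffold for small nucleolar ribonucleoproteins, had the largest wild-type rise of the class at 2 h, 2.40 ± 0.09 (adjusted p = 3.7e-11). Nolc1 had signals of 413 and 383 at 0 h, 2561 and 2555 at 2 h and 868 and 913 at 12 h on the cko arrays, against 340 and 403 at 0 h, 1976 and 2082 at 2 h and 760 and 829 at 12 h on the wild-type arrays. It was highest at 2 h in both genotypes. Ddx21, a nucleolar RNA helicase, rose by 1.52 ± 0.09 in wt at 12 h (adjusted p = 4.4e-09). Ddx21 read 427 and 442 at 0 h, 2046 and 2273 at 2 h and 1171 and 1182 at 12 h on the cko arrays, against 437 and 406 at 0 h, 1635 and 1638 at 2 h and 1326 and 1157 at 12 h on the wild-type arrays. Mybbp1a, a nucleolar regulator of transcription, had the smallest called rise in cko at 2 h, 0.41 ± 0.08 (adjusted p = 0.00044), and Npm1 is nucleophosmin, a histone chaperone. Npm1 read 7255 and 7213 at 0 h, 15850 and 16219 at 2 h and 14373 and 15756 at 12 h on the cko arrays, against 8115 and 7933 at 0 h, 15251 and 14954 at 2 h and 12935 and 13600 at 12 h on the wild-type arrays.

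Of the 12 genes for the small subunit processome and pre-40S particles, 10 rose in cko and 11 in wt at 2 h, with 1 lower in each. Nop14, a processome protein, had the largest rise. Nop14 had signals of 40 and 67 at 0 h, 927 and 1106 at 2 h and 504 and 434 at 12 h on the cko arrays, against 69.6 and 74.5 at 0 h, 936 and 879 at 2 h and 112 and 58.1 at 12 h on the wild-type arrays. Its 12 h wild-type values overlapped those at 0 h, whereas on the cko arrays the 12 h values did not. This order also follows the array division, with every cko 2 h, cko 12 h and wt 2 h array above every other array. The rise at 2 h was 3.91 ± 0.23 in cko (adjusted p = 2.5e-09) and 3.39 ± 0.23 in wt (adjusted p = 1.5e-08), and at 12 h it was 2.83 ± 0.23 in cko (adjusted p = 1.1e-07). Wdr43, a member of the subcomplex that links the processome to transcription of the precursor, rose at both times in both genotypes. Wdr43 had signals of 1054 and 962 at 0 h, 3998 and 3869 at 2 h and 2343 and 2293 at 12 h on the cko arrays, against 943 and 1033 at 0 h, 3443 and 3433 at 2 h and 1946 and 1784 at 12 h on the wild-type arrays. Utp18 and Wdr75, which are also processome proteins, followed the same course. Utp18 read 1092 and 945 at 0 h, 2940 and 3056 at 2 h and 1441 and 1378 at 12 h on the cko arrays, against 612 and 684 at 0 h, 2438 and 2170 at 2 h and 1556 and 1250 at 12 h on the wild-type arrays. Rrp9, a protein of the U3 ribonucleoprotein, rose in wt at 12 h by 1.72 ± 0.17 (adjusted p = 1.2e-06). Heatr1 was not called in cko at 2 h (-0.30 ± 0.13, adjusted p = 0.053).

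Bms1, a GTPase of the processome, fell at 2 h on its brightest probe set. Bms1 had signals of 24133 and 25380 at 0 h, 11689 and 11928 at 2 h and 14912 and 14692 at 12 h on the cko arrays, against 17935 and 18074 at 0 h, 13152 and 13121 at 2 h and 24020 and 24828 at 12 h on the wild-type arrays. The difference at 2 h was -1.07 ± 0.04 in cko (adjusted p = 3.4e-11) and -0.45 ± 0.04 in wt (adjusted p = 3.2e-07), and at 12 h it was -0.74 ± 0.04 in cko (adjusted p = 2.2e-09) and 0.44 ± 0.04 in wt (adjusted p = 8e-07). The probe set follows the array division in its order, with its lowest signals on the cko 2 h, cko 12 h and wt 2 h arrays. Its other probe set differed at 2 h by 1.17 in cko and 0.06 in wt.

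The 3 genes of the PeBoW complex, which acts on the large subunit precursor, all rose at 2 h in both genotypes. Wdr12 had the largest rise. Wdr12 had signals of 208 and 290 at 0 h, 1166 and 1316 at 2 h and 1160 and 1170 at 12 h on the cko arrays, against 172 and 233 at 0 h, 894 and 832 at 2 h and 890 and 946 at 12 h on the wild-type arrays. All 8 stimulated arrays lay above all 4 arrays at 0 h. The rise at 2 h was 2.26 ± 0.15 in cko (adjusted p = 7.4e-09) and 2.02 ± 0.15 in wt (adjusted p = 3e-08), and at 12 h 2.17 ± 0.15 in cko (adjusted p = 1.6e-08) and 2.11 ± 0.15 in wt (adjusted p = 3.6e-08). Wdr12 had the largest wild-type rise at 12 h of the 44 genes. Bop1 differed at 12 h between the genotypes. Bop1 read 1342 and 1426 at 0 h, 1829 and 2107 at 2 h and 953 and 933 at 12 h on the cko arrays, against 965 and 1104 at 0 h, 1518 and 1222 at 2 h and 1720 and 1698 at 12 h on the wild-type arrays. It fell by 0.55 ± 0.10 in cko at 12 h (adjusted p = 0.00041), where its other probe set differed by 0.74.

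Of the 13 tested genes of large subunit assembly, 12 rose at 2 h in each genotype. Nop16, a nucleolar protein of pre-60S particles, led the class. Nop16 had signals of 168 and 177 at 0 h, 2458 and 2614 at 2 h and 1788 and 1903 at 12 h on the cko arrays, against 133 and 138 at 0 h, 1803 and 1851 at 2 h and 352 and 307 at 12 h on the wild-type arrays. The rise at 2 h was 3.76 ± 0.09 in cko (adjusted p = 4.3e-13) and 3.60 ± 0.09 in wt (adjusted p = 1.1e-12), and at 12 h 3.30 ± 0.09 in cko (adjusted p = 2.7e-12). As with Nop58, the wild-type signals at 12 h were closer to those at 0 h than to those at 2 h, and the cko signals were not. For both genes this order is also that of the array division. Every cko 2 h, cko 12 h and wt 2 h array read above every other array, so the genotype and the division cannot be told apart at 12 h. Gnl3, the GTPase nucleostemin, read 7598 and 7849 on cko arrays and 6601 and 6760 on wild-type arrays at 2 h. Ebna1bp2, which in yeast assembles with Rrs1 on the precursor, followed the order of Nop16. Ebna1bp2 had signals of 600 and 504 at 0 h, 4451 and 4909 at 2 h and 3417 and 3569 at 12 h on the cko arrays, against 517 and 452 at 0 h, 3504 and 3531 at 2 h and 972 and 1155 at 12 h on the wild-type arrays. Grwd1, a chaperone-like histone-binding protein, rose by 1.64 ± 0.06 in wt at 12 h (adjusted p = 8.5e-11). Grwd1 read 1839 and 1906 at 0 h, 3051 and 3016 at 2 h and 2283 and 2296 at 12 h on the cko arrays, against 1487 and 1498 at 0 h, 3320 and 3085 at 2 h and 4847 and 4524 at 12 h on the wild-type arrays. Ddx18, an RNA helicase, had the smallest called rise there, 0.38 ± 0.11 (adjusted p = 0.01), after Bms1 and Ddx10, a helicase that rose by 0.48 ± 0.09 (adjusted p = 0.00056).

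Gnl2, a GTPase of pre-60S particles, was the large subunit gene that was not called at 2 h. Gnl2 had signals of 931 and 1063 at 0 h, 1018 and 1014 at 2 h and 459 and 321 at 12 h on the cko arrays, against 1074 and 825 at 0 h, 870 and 1018 at 2 h and 885 and 1041 at 12 h on the wild-type arrays. The differences at 2 h were 0.03 ± 0.16 in cko (adjusted p = 0.88) and 0.00 ± 0.16 in wt (adjusted p = 1), and it fell at 12 h in cko by 1.34 ± 0.16 (adjusted p = 4.9e-06). Its other 2 probe sets differed at 2 h by 1.88 and 2.87 in cko and by 1.56 and 1.82 in wt, and at 12 h in cko by 0.85 and 1.64, all positive.

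**Figure D3:**
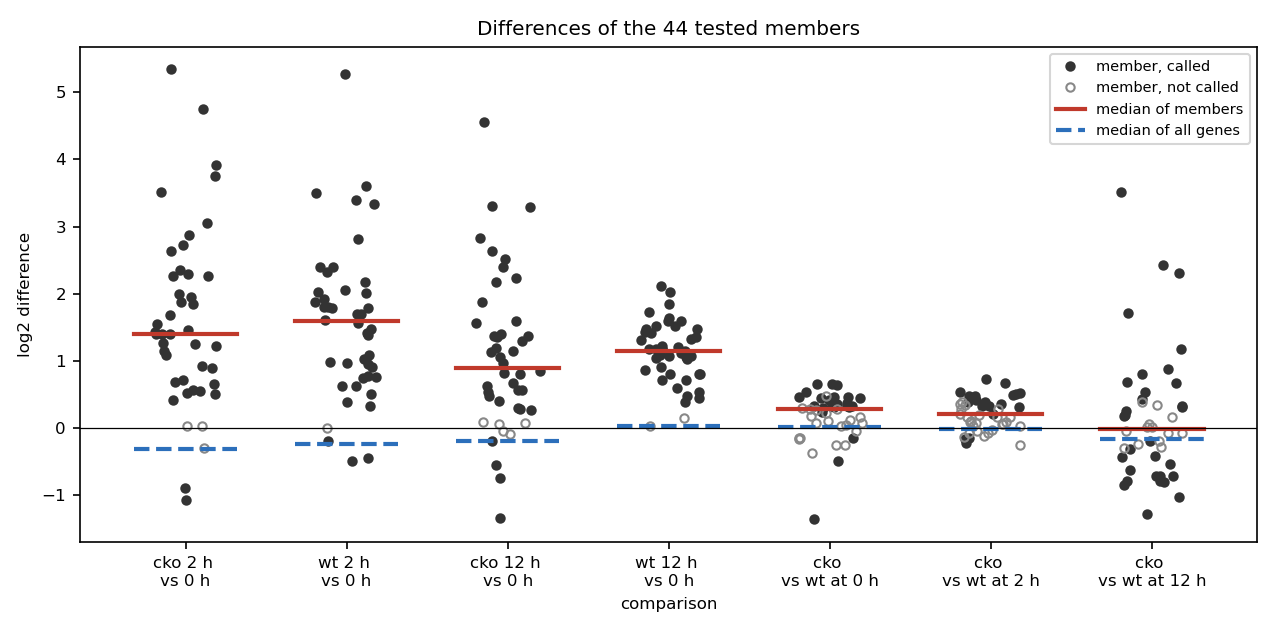
Log2 differences of the 44 genes (points) in 7 comparisons, with filled points for called genes, the median of the 44 genes as a red line and the median of all 12190 genes as a dashed blue line. The red line is at 1.40 and 1.59 for 2 h, at 0.90 and 1.15 for 12 h, and at 0.28, 0.20 and -0.01 for cko against wt.

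Between 2 and 12 h the signals of many of these genes came down, and the comparison that lies within the division is the one in cko cells. There 29 of the 44 genes were lower at 12 h than at 2 h and 3 higher, where 18.7% of all tested genes were lower and 30.2% higher. The median was -0.49, against 0.10 over all genes. The largest falls were those of Nolc1 (-1.51 ± 0.09, adjusted p = 1.1e-08), Pus7 (-1.46 ± 0.16, adjusted p = 2.7e-06) and Gnl2 (-1.37 ± 0.16, adjusted p = 6e-06). The 3 higher genes were Nop10 (0.70 ± 0.06, adjusted p = 3.1e-07), Polr1a (0.54 ± 0.12, adjusted p = 0.0021) and Bms1 (0.33 ± 0.04, adjusted p = 1.6e-05). The other Nop10 probe set was called higher as well (0.84). Those of Polr1a differed by -1.33, called lower, and by -0.30, and that of Bms1 by -0.72, not called, so that the averages over probe sets were -0.36 for Polr1a and -0.20 for Bms1. Among the other probe sets 40 of 45 had the sign of the brightest, with 32 called lower and 1 higher. In wild-type cells, across the division, 23 genes were lower and 10 higher (22% and 35.3% of all tested genes), with a median of -0.26 against 0.26. The median over all genes was 0.06 with the common median, and 50.6% of all called genes were higher in place of 61.6%. Nop58 was lower by 3.96 ± 0.13 (adjusted p = 2.3e-11), Nop14 by 3.25 ± 0.23 (adjusted p = 3e-08) and Nop16 by 2.42 ± 0.09 (adjusted p = 6.3e-11). Polr1a (1.10 ± 0.12, adjusted p = 2.8e-06), Nop10 (1.07 ± 0.06, adjusted p = 2.6e-09) and Bms1 (0.89 ± 0.04, adjusted p = 4.1e-10) were the 3 highest. The other Nop10 probe set was called lower (-0.70), that of Bms1 differed by 0.05 and those of Polr1a by 0.22 and -0.29, none of these 3 called, and the averaged probe sets of Polr1a gave 0.34 (adjusted p = 0.12). Of the other probe sets 26 of 45 had the sign of the brightest. As for Nop10, another probe set was called lower where the brightest was called higher for Bop1 (-1.78 against 0.32), Heatr1 (-0.84 against 0.72) and Nhp2 (-1.97 against 0.23).

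Before stimulation, cko arrays had modestly higher signals for a share of the genes. At 0 h, 20 of the 44 were higher in cko and 3 lower, where 16.3% of all tested genes were higher and 16% lower, and the median was 0.28 against 0.02. On arrays brought to the common median 14 were higher and 4 lower (11.8% and 19.2% of all tested genes), and 38.0% of all called genes were higher in place of 50.4%. The higher genes included 7 of the 12 small subunit genes and 7 of the 13 large subunit genes. Gar1 read 2609 and 2141 on cko arrays, against 1541 and 1431 on wild-type arrays. Utp18 read 1092 and 945 on cko arrays, against 612 and 684 on wild-type arrays. Rrp9 read 326 and 235 on cko arrays, against 177 and 162 on wild-type arrays. The differences of these 3 highest called genes were 0.66 ± 0.08 for Gar1 (adjusted p = 4.5e-05), 0.64 ± 0.11 for Utp18 (adjusted p = 0.00047) and 0.66 ± 0.17 for Rrp9 (adjusted p = 0.009). The Rrp9 difference was 0.44 without the first cko 0 h array and 0.60 without the second wt 0 h array. Pus7 was lower by 1.36 ± 0.16 (adjusted p = 2.4e-05), Ncl by 0.49 ± 0.07 (adjusted p = 0.00012) and Npm1 by 0.15 ± 0.05 (adjusted p = 0.037). The other probe sets had the sign of the brightest in 26 of 45 cases, with 12 called higher and 4 lower. Averaged over probe sets, Npm1 differed by 0.13, with its other probe set at 0.41, and Ncl by -0.08 (adjusted p = 0.55), so that the Ncl call rests on the brightest probe set.

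At 2 h of anti-IgM, 16 of the 44 genes were higher in cko and 3 lower, where 12.8% of all tested genes were higher and 15.7% lower. The median was 0.20 against -0.02. Without the first wt 2 h array the median was 0.19 against -0.04 over all genes, and without the second 0.19 against -0.01. Without the first cko 2 h array it was 0.23 against -0.01, and without the second 0.19 against -0.02. Fewer of the 44 genes were called higher without the first wt 2 h or the second cko 2 h array, as were fewer of all tested genes. All 3 PeBoW genes were among the higher ones. Polr1e read 998 and 897 on cko arrays, against 599 and 531 on wild-type arrays, a difference of 0.73 ± 0.14 (adjusted p = 0.0017). Dkc1 was higher by 0.67 ± 0.13 (adjusted p = 0.0014) and Wdr75 by 0.53 ± 0.15 (adjusted p = 0.015). Without the intensity trend Wdr75 was not called (adjusted p = 0.06). Its difference was 0.37 without the first wt 2 h array, and 0.50 and 0.57 without the first and the second cko 2 h array. The 3 lower genes were Noc4l (-0.22 ± 0.06, adjusted p = 0.019), Nop10 (-0.17 ± 0.06, adjusted p = 0.048) and Bms1 (-0.15 ± 0.04, adjusted p = 0.014). With the common median or without the intensity trend 0 of the 44 genes were called lower (14.3% and 13.1% of all tested genes). The other probe sets had the sign of the brightest in 37 of 45 cases. Polr1e, Wdr75, Utp18, Bop1, Nip7, Gnl3 and Nop16 made up the 7 genes that were higher in cko at both 0 and 2 h (4.66% of all tested genes), and 0 were lower at both (6.4% of all tested genes). Bms1, Noc4l and Nop10 were higher at 0 h and lower at 2 h (2.21% of all tested genes).

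The genotype values at 0 and 2 h stood beside differences in the markers of other cells. The summed signal of 6 myeloid markers was 7847 to 8000 on cko arrays and 17736 to 18313 on wild-type arrays at 0 h, and 1849 to 2030 on cko arrays and 11013 to 11153 on wild-type arrays at 2 h. At 0 h 3 of the 5 tested myeloid markers were lower in cko and Csf1r was higher (0.93), and at 2 h all 5 were lower. The summed signal of 8 B cell and gate markers was 82443 to 83117 on cko arrays and 68550 to 70023 on wild-type arrays at 0 h, where 6 were higher in cko, and 31254 to 31695 on cko arrays and 33846 to 35126 on wild-type arrays at 2 h, where 1 was higher and 5 were lower. Itgam, a myeloid integrin subunit, was not tested and averaged at most 11.6 in any group. On wild-type arrays at 0 h, S100a8 averaged 11980, S100a9 4034, Lyz2 1104, Csf1r 829.1 and Cd14 72.34. The markers also moved with time. Against 0 h, 5 of the 6 tested T and NK cell markers fell in each genotype at 2 h and at 12 h. Their summed signal at 0, 2 and 12 h was 2331 to 2631, 1167 to 1203 and 720 to 767 on cko arrays, against 2612 to 2635, 1147 to 1177 and 374 to 391 on wild-type arrays. Myeloid markers fell in 4 of 5 cases in each genotype at both times, with 1 higher at 2 h in each and at 12 h in cko. Of the 8 B cell and gate markers, 6 fell in cko at each time, and in wt 5 fell at 2 h and 6 at 12 h. The 6 in cko at 12 h include Cd93, which the gate excludes. The part of these markers in the genotype differences and in the responses was not tested.

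At 12 h the comparison of genotypes crosses the division, and the genes went in both directions. In cko 16 genes were higher and 15 lower than in wt, where 21.4% of all tested genes were higher and 29.9% lower, and the median was -0.01 against -0.17. Over all genes the median was 0.04 with the common median, and 58.0% of all called genes were higher in place of 41.7%. Nop58 was higher by 3.52 ± 0.13 (adjusted p = 2.1e-10), Nop16 by 2.43 ± 0.09 (adjusted p = 2.1e-10) and Nop14 by 2.31 ± 0.23 (adjusted p = 1.4e-06). Each of these genes read higher on every array of the cko 12 h side of the division than on any array of the other side. Gnl2 was lower by 1.29 ± 0.16 (adjusted p = 1e-05), Grwd1 by 1.03 ± 0.06 (adjusted p = 8.6e-09) and Bop1 by 0.85 ± 0.10 (adjusted p = 9.5e-06). Nop58 and Nop14 had 1 probe set each above the filter. The other probe set of Nop16 differed by 0.56, and those of Gnl2 by 0.00 and 0.53. Bop1 had another probe set at 0.41, called higher. Ncl, called higher at 0.68, had others from -0.72 to 0.38. The summed myeloid signal was 1892 to 1916 on cko arrays and 6172 to 7018 on wild-type arrays at this time.

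By the spread of their differences, probe sets of the same gene disagreed most in the comparisons that cross the division. Over the 33 genes with several probe sets, the median spread of a gene's differences was 0.43 and 0.25 for cko against wt at 0 and 2 h, 0.70 for wt at 12 h against 0 h and 0.44 for cko at 12 h against 2 h. It was 1.22 in cko and 0.97 in wt for 2 h against 0 h, 1.32 for cko at 12 h against 0 h and 1.13 for cko against wt at 12 h. By sign the order was not the same, since cko against wt at 0 h, within the division, had 26 of 45 agreeing and the responses at 2 h, across it, had 41 in cko and 39 in wt. For cko against wt at 12 h 26 of 45 other probe sets had the sign of the brightest, and 11 genes had another probe set called in the opposite direction. Nop56 differed by -0.31 on the brightest and 2.30 on the other probe set, Nhp2 by -0.20 and 1.98, and Dkc1 by 0.43 on the brightest and by -0.42 and 2.27 on the others. These 3 examples were chosen after their values were seen. For the early response the other probe sets were on the whole positive, with 42 of 45 called higher in cko and 41 in wt at 2 h and 0 called lower. In wt at 12 h, 28 of the 45 were called higher and 0 lower.

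**Figure D4:**
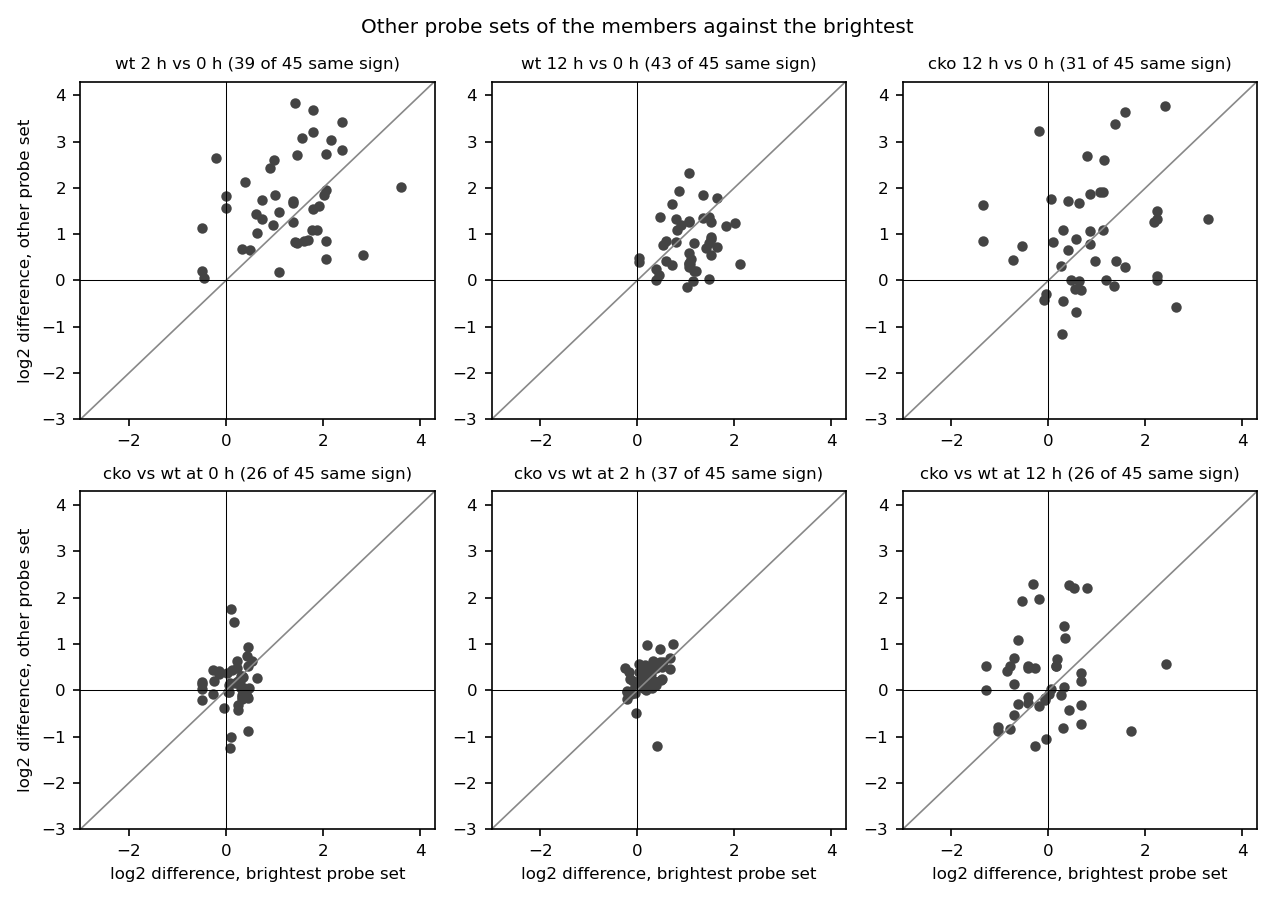
Log2 difference of each of the 45 other probe sets (vertical) against that of the brightest probe set of the same gene (horizontal) in 6 comparisons, with the line of equality. Points share the sign in 39 of 45 cases for wt at 2 h, 43 for wt at 12 h and 31 for cko at 12 h against 0 h, and in 26, 37 and 26 of 45 for cko against wt at 0, 2 and 12 h.

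Whether the response itself differed between the genotypes was tested as an interaction. At 2 h, where both genotypes change sides of the division, 7 genes responded more in cko and 11 less (8.59% and 11.8% of all tested genes). Only the sides are balanced in this contrast. The actin value went from 1.99% and 1.8% to 10.56% and 10.78% on cko arrays, and from 3.27% and 3.33% to 8.51% and 8.41% on wt arrays. The part of this unequal change in the contrast was not tested. Pus7 responded more by 1.42 ± 0.22 (adjusted p = 0.00052), Ncl by 0.66 ± 0.10 (adjusted p = 0.00036) and Pes1, a PeBoW protein, by 0.59 ± 0.13 (adjusted p = 0.005). For Pus7 and Ncl the genotypes differed at 0 h (-1.36 and -0.49) and were not called different at 2 h (0.06 and 0.17). With probe sets averaged, the Ncl difference at 0 h was -0.08. The difference of responses was -0.70 ± 0.08 for Nop10 (adjusted p = 7.6e-05), -0.62 ± 0.18 for Heatr1 (adjusted p = 0.027) and -0.61 ± 0.06 for Bms1 (adjusted p = 1.3e-05). Averaging probe sets gave 4 genes responding more and 2 less (6.2% and 6.9% of all tested genes in that setting). There Pes1 was at 0.30 (adjusted p = 0.41), Heatr1 at -0.21 (adjusted p = 0.35) and Bms1 at 0.25, whose other probe set read 1.11. Heatr1 was also not called without the intensity trend (adjusted p = 0.11), and 26 of 45 other probe sets had the sign of the brightest. The median of the 44 genes was 0.07 against -0.04 over all genes. It was 0.12 against -0.03 without the second wt 2 h array and 0.03 against -0.04 without the second cko 2 h array. Without the first wt 2 h array or the first cko 0 h array it was 0.05 against -0.05. Fewer of the 44 genes, and fewer of all tested genes, were called in these fits. After the shift to the common median 9 responded more and 6 less (10.8% and 8.3% of all tested genes), and the share of all called genes in the higher direction was 56.4% in place of 42.0%. At 12 h, across the division, 10 responded more and 18 less (18.8% and 24.4% of all tested genes). After that shift these were 16 and 14 (27.1% and 14.7% of all tested genes). The share of all called genes in the higher direction was then 64.9% in place of 43.5%, and the median over all genes was 0.12 in place of -0.17. The highest were Nop58 (3.24 ± 0.19, adjusted p = 2.2e-08), Nop14 (2.68 ± 0.33, adjusted p = 1.6e-05) and Pus7 (2.25 ± 0.22, adjusted p = 1.9e-06), and the lowest were Gnl2 (-1.37 ± 0.22, adjusted p = 0.00021), Grwd1 (-1.35 ± 0.09, adjusted p = 4.2e-08) and Bop1 (-1.26 ± 0.15, adjusted p = 9.4e-06). The other probe sets had the sign of the brightest in 23 of 45 cases. Those of Gnl2 read 1.25 and 0.37 and its average 0.08 (adjusted p = 0.85), and that of Bop1 read 0.40.

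**Figure D5:**
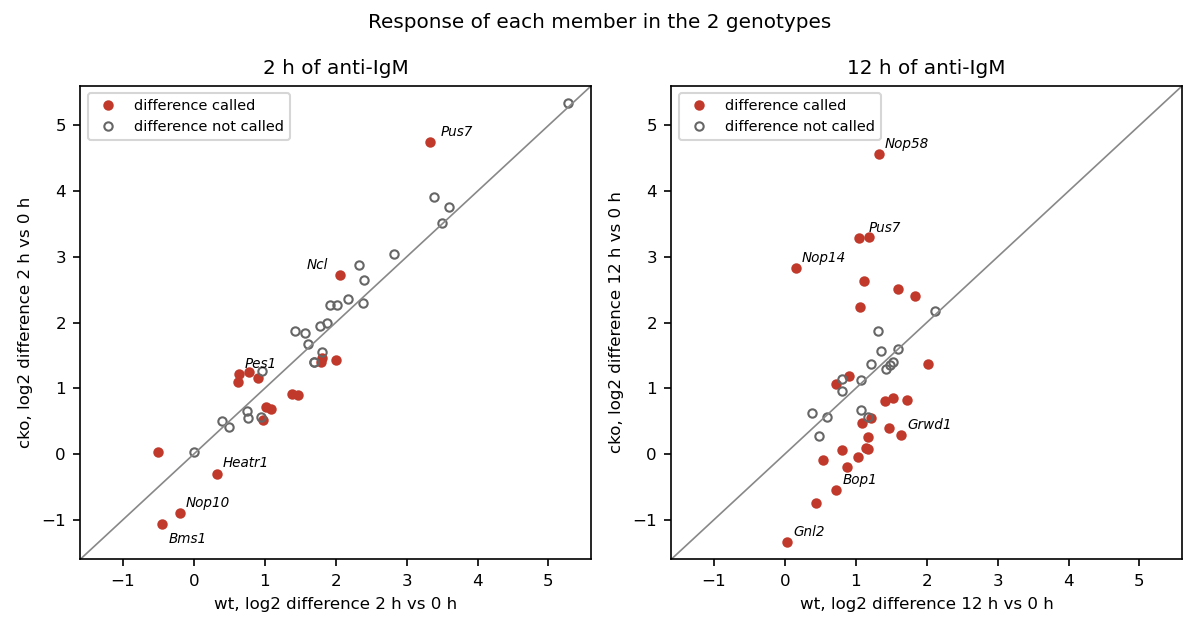
Log2 response of each of the 44 genes in cko (vertical) against wt (horizontal) at 2 h (left) and 12 h (right), with the line of equality and filled points where the difference of responses was called. At 2 h Pus7 lies 1.42 above the line, and at 12 h Nop58 lies 3.24 above it and Gnl2 1.37 under it.

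Other genes of the pathway, taken from a list of 133 of which 126 were tested, moved in the same comparisons. In cko at 2 h 105 rose and 15 fell (23.8% and 39.2% of all tested genes), with a median of 1.15, and in wt 101 rose and 13 fell (23.5% and 36.2%), with a median of 0.97. At 12 h 94 rose and 16 fell in cko (25.9% and 33.1%), and 92 rose and 4 fell in wt (24.8% and 23.1%), with medians of 0.79 and 0.70. Pno1, which takes part in small subunit maturation, rose by 3.61 ± 0.08 in cko at 2 h (adjusted p = 3.2e-13), and Pop1, a subunit of the ribonucleases P and MRP, rose by 3.24 ± 0.23 in cko (adjusted p = 1.7e-08) and 3.76 ± 0.23 in wt (adjusted p = 4.6e-09). Ppan, a large subunit factor, rose by 2.18 ± 0.09 in wt at 12 h (adjusted p = 2.2e-10). Among the falls, Pih1d1, a snoRNP assembly factor, was lower by 1.57 ± 0.07 in cko (adjusted p = 1.7e-10) and by 1.29 ± 0.07 in wt at 2 h (adjusted p = 1.7e-09), and Rpf1, a large subunit factor, by 2.24 ± 0.13 in cko (adjusted p = 3.1e-09) and by 1.06 ± 0.13 in wt at 12 h (adjusted p = 1.1e-05). For cko against wt, 35 of the 126 were higher and 15 lower at 0 h (16.3% and 16% of all tested genes), 45 higher and 2 lower at 2 h (12.8% and 15.7%), and 60 higher and 35 lower at 12 h (21.4% and 29.9%), where the comparison crosses the division.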

How the data were processed

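Sorted B cells were profiled on Affymetrix whole-genome mouse arrays (12 arrays, 6 groups of 2). Linear antisense amplification started from 100 ng of RNA and each array received 10 µg, per the labels' protocols, and the software was GCOS 1.4, per the submitters' processing notes. The authors deposited 1 signal intensity on a linear scale for each probe set on each array. After trimming 2% at each end, the mean was 250 on every array, so the arrays had been scaled before deposit, and the sources used here do not name the summarisation algorithm. Median signals were 29.1 to 40.3, and duplicates correlated at 0.974 to 0.984 across probe sets.

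Signals were taken as log2(signal + 16), which understates changes of dim genes, and a fold is on that scale. Of 45101 probe sets, 34945 had 1 gene symbol in the platform annotation (99.4% matched RefSeq), 932 several, 9160 none and 64 were controls. Probe sets with a mean above the 40th percentile (5.14) were kept (21905), and the brightest stood for each of 12190 genes. limma 3.58.1 in R 4.3.3 fitted 1 mean per group on all 12 arrays (6 residual and 7.3 prior degrees of freedom, eBayes with trend), with two-sided tests, Benjamini-Hochberg adjustment over the 12190 genes of each of 11 contrasts, and a call at an adjusted p under 0.05. The procedure was tested on simulated data. The members, the pathway and marker lists, the contrasts and the alternatives were chosen with earlier results of these data known. In each contrast the 3 highest and 3 lowest called members are named with their statistics, in the comparisons with 0 h also the leading member of each role, and of the other pathway genes some of the 2 highest and 2 lowest. Same-numbered arrays did not deviate together (15 pairs of groups, r from -0.01 to 0.01), so the numbers were not taken as pairs. No genome was used, and coordinates are given for RefSeq promoter windows only.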

Additional observations from a re-analysis of the deposited data

Results flagged for a closer look

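These results were taken up because the response to anti-IgM differed between cells labelled cko and cells labelled wt by a test of the difference itself, an interaction term in the limma fit. At 2 h, 7 genes responded more in cko and 11 less, of the 44 (8.59% and 11.8% of all tested genes). Pus7 (1.42), Ncl (0.66) and Pes1 (0.59) led the first direction, and Nop10 (-0.70), Heatr1 (-0.62) and Bms1 (-0.61) the second. For Pus7 and Ncl the genotypes differed at 0 h (-1.36 and -0.49) and were not called different at 2 h (0.06 and 0.17). With probe sets averaged, 4 genes responded more and 2 less (6.2% and 6.9% of all tested genes). In that setting Pes1 gave 0.30 (adjusted p = 0.41), Heatr1 -0.21 (adjusted p = 0.35) and Bms1 0.25, and the other Bms1 probe set read 1.11. Heatr1 was also not called without the intensity trend (adjusted p = 0.11), nor when a single array was left out in 5 of 12 cases.

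At 12 h, 10 genes responded more in cko and 18 less, of the 44 (18.8% and 24.4% of all tested genes). Nop58 (3.24), Nop14 (2.68) and Pus7 (2.25) led the first direction, and Gnl2 (-1.37), Grwd1 (-1.35) and Bop1 (-1.26) the second. The cko 12 h arrays lay on the other side of the control-probe division from the remaining 3 groups of this contrast, so genotype response and division cannot be told apart there. For Gnl2 the averaged probe sets gave 0.08 (adjusted p = 0.85), with its others at 1.25 and 0.37, and over the 33 genes with several probe sets 23 of 45 others had the sign of the brightest. For Bop1 the other probe set read 0.41 for cko against wt at 12 h, where the brightest read -0.85.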

How the results depend on the processing

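Each count of called genes and each named gene was recomputed with quantile normalization, a common median, pseudocounts of 1 and 64, no filter and a 60th percentile filter, no intensity trend, the compared groups only, the replicate block, probe sets of a gene averaged and, for responses, a term for the control-probe division, which takes genotype and time as additive and gives both genotypes 1 response. An alternative with the brightest probe set not of the _s_at or _x_at kind, which leaves 42 genes, was chosen after seeing the data. Of the counts 481 stayed within 1.5 times their value and 33 did not. Of the values of named genes 1830 kept direction and call, 68 lost the call and 27 turned in sign, and the cause was not tested. With the replicate block 21, 16 and 17 genes were higher for cko against wt at 0, 2 and 12 h (16.2%, 12.8% and 21.5% of all tested genes). For cko at 2 and 12 h 39 and 35 were higher (23.8% and 25.8%), and for wt 40 and 42 (23.4% and 24.7%). Nop10 for cko against wt at 2 h (-0.17) was no longer called (adjusted p = 0.055).

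With the mean of probe sets, 1, 0 and 7 genes were lower for cko against wt at 0, 2 and 12 h (12.4%, 11.3% and 23.7% of all tested genes). At 2 h 0 were lower in cko and in wt (35.7% and 32.5%), and at 12 h 1 in cko (28.8%). Higher genes numbered 1 in cko and 5 in wt for 12 h against 2 h (26.1% and 30.0%). At 2 h 4 genes responded more in cko and 2 less (6.2% and 6.9%). In that setting the signs turned for Npm1 at 0 h (0.13), for Bms1 (0.04) and Nop10 (0.11) in cko against wt at 2 h, for Bms1 (0.05) and Nop10 (0.75) in cko and Nop10 (1.22) and Polr1a (0.28) in wt at 2 h, for Bop1 (0.10) and Gnl2 (0.38) in cko at 12 h, for Bms1 (-0.20) and Polr1a (-0.36) in cko at 12 h against 2 h, and for the interactions of Bms1 at 2 h (0.25) and Gnl2 at 12 h (0.08). With the division term 0 genes were lower at 2 h in cko and in wt (22.6% of all tested genes) and 0 at 12 h in cko (20.8%). In that fit, which assumes equal 12 h responses, the signs turned for Bms1 (0.11), Nop10 (0.17) and, in wt, Polr1a (0.06) at 2 h. They also turned for Bms1 (0.29), Bop1 (0.75) and Gnl2 (0.04) in cko at 12 h. With the common median 0 genes were lower for cko against wt at 2 h, 1 for wt at 2 h and 2 for cko at 12 h (14.3%, 28.9% and 22.1% of all tested genes). In wt 6 genes were higher at 12 h against 2 h (27.3%). In cko 6 responded less at 2 h (8.3%) and 16 responded more at 12 h (27.1%). Without the trend 0 genes were lower for cko against wt at 2 h (13.1% of all tested genes), and 6 responded less in cko at 2 h (8.5%).

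With the probe sets other than _s_at and _x_at, 5 and 1 genes were lower for cko against wt at 0 and 2 h (16.4% and 13.8% of all tested genes). For cko at 2 h 1 was lower (36.2%), and 4 responded less in cko at 2 h (9.6%). Bms1 turned to 0.24 for cko against wt at 2 h, and to 1.17 in cko and 0.06 in wt at 2 h. It also turned to 0.45 in cko at 12 h, -0.72 in cko at 12 h against 2 h and 1.11 for the interaction at 2 h. Arrays were also left out 1 at a time, with the lone array of a group assumed to vary like the other groups. The median of the 44 genes for cko against wt was then 0.22 to 0.28 at 0 h, 0.19 to 0.23 at 2 h and -0.03 to 0.02 at 12 h. The number of genes called varied most for cko against wt at 2 h. For the responses the median was 1.27 to 1.51 in cko and 1.48 to 1.64 in wt at 2 h. At 12 h it was 0.84 to 1.01 in cko and 1.12 to 1.17 in wt. For 12 h against 2 h it gave 3 to 4 higher and 27 to 30 lower in cko and 9 to 12 and 21 to 23 in wt, and for the interactions 4 to 7 and 7 to 11 at 2 h and 8 to 10 and 17 to 19 at 12 h. Signal over background sets the limit for dim genes such as Ftsj3, whose lowest signal at 0 h was 23.7.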
